A study of Rattus norvegicus with 16 samples.

Results

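The slit diaphragm is the cell junction that closes the filtration slits between the foot processes of podocytes, the epithelial cells on the outer face of the glomerular filter. The 7 genes described here encode proteins of that complex: Nphs1, Fat1, Magi2, Tjp1, Cd2ap, Nck1 and Nck2. They were chosen by name, and all 7 were found, each on 1 row, among the 13222 genes of the deposited expression table. RNA was measured by poly(A) sequencing in glomeruli sieved from the kidneys of 16 male Wistar rats weighing about 175 g, in 4 groups of 4. The control rats are labelled healthy, and the labels do not say whether they received vehicle. The PAN rats were injected intravenously with puromycin aminonucleoside (PAN), a podocyte toxin used to produce nephrotic syndrome, and were gavaged daily with a sham vehicle. The other two groups received the same injection and daily gavage with pioglitazone, a full agonist of the nuclear receptor PPARγ, or with GQ-16, a partial agonist of it. Glomeruli were taken on day 11. No dose, litter or batch is given, so p-values measure the spread between these rats. Sieved glomeruli are a mixture of cell types, so fewer podocytes and less RNA per podocyte cannot be told apart in these samples.

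In the slit diaphragm, the extracellular domains of nephrin (Nphs1) and of its relatives from facing foot processes meet across the slit. Inside the cell, scaffold proteins with PDZ domains hold the membrane proteins in place. When tyrosines in the tail of nephrin are phosphorylated, the Nck adaptors bind them through their SH2 domains and recruit the machinery that assembles actin. Mutations of nephrin cause congenital nephrotic syndrome in humans, and loss of several of the other members causes proteinuria.

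The level of a gene is given as CPM, its reads per 1000000 reads of all listed genes in that library. CPM is not divided by transcript length, so levels are compared between rats and not between genes. Changes are differences of group means of log2(CPM + 1), and a gene was called when its limma p-value, adjusted over all 13222 genes by the Benjamini-Hochberg method, was under 0.05. Totals ran from 13351137 to 21977663 reads per library, and 3 reads corresponded to between 0.137 and 0.225 CPM, far under the level of every member. The share of reads from 21 mitochondrial genes ran from 13.9% to 39.6% in control rats and from 5.98% to 10.8% in PAN rats. Because that share enters the CPM of all other genes, each change was also computed after median-ratio scaling, which sets the typical gene equal between libraries. The median change of all genes in PAN against control was 0.28 as deposited and -0.0025 after that scaling. The level of podocyte RNA was summarized by a podocyte score, the mean log2(CPM + 1) of 18 podocyte genes that include none of the 7. All 18 were present in every group, and the score had a range of 6.38 to 8.64 over the control rats, 8.26 to 8.69 over the PAN rats, 7.18 to 8.84 in the pioglitazone group and 7.42 to 9.23 in the GQ-16 group. Control replicate 1 was at 8.64 and the other control rats were between 6.38 and 7.32, so control replicate 1 had the highest score of its group. The control rats were spread over a wide range and no single one was set apart by Dixon's test on the score, and values without 1 rat are given below where they change a call.

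RefSeq promoter windows on assembly GRCr8, from 250 bases before to 50 bases after the annotated start, were found for all 7 genes. The expression table was counted on Rnor_6.0, per the submitters' processing notes, so these windows are shown for sequence only. Nphs1 lies at chr1:94848011-94848310 on the plus strand, Magi2 at chr4:16762086-16762385 on the minus strand, Nck1 at chr8:109958198-109958497 on the minus strand and Nck2 at chr9:53206729-53207028 on the plus strand. These are printed because Nphs1 and Magi2 varied most between rats, and because Nck1 and Nck2, which encode closely related adaptors, varied in opposite directions. Capitals mark the GC box GGGCGG and TGCTGAC, the core of one arm of the Maf recognition element, on either strand.
Nphs1: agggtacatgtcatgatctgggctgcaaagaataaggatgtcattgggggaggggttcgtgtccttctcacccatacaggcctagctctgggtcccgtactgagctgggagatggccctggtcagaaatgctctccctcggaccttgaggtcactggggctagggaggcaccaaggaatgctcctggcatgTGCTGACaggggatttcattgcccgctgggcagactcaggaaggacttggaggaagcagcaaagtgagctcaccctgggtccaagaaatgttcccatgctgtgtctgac
Magi2: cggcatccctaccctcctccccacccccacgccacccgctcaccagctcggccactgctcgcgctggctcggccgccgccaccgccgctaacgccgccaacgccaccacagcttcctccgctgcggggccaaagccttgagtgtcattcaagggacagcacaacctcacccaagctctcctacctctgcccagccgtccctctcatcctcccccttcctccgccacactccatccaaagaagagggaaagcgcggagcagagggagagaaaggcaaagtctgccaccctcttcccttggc
Nck1: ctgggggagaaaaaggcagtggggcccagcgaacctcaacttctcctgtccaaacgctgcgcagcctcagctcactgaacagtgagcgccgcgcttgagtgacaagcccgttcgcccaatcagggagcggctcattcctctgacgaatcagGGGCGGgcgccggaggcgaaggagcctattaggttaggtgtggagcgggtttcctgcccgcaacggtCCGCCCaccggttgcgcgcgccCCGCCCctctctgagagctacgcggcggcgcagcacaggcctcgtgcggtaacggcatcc
Nck2: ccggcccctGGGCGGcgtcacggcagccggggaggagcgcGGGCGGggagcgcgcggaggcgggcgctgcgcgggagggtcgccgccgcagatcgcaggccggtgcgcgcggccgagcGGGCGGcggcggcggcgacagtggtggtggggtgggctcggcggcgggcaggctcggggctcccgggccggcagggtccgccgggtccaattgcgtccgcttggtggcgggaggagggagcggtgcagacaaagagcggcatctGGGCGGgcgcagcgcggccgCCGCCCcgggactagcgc
The Nphs1 window held 4 CpG dinucleotides and 56.3% G and C, and it was the one of the 7 with TGCTGAC, which begins 59 bases before the start. That motif was found in 4.44% of 33469 rat promoter windows. Nck2 held 51 CpG dinucleotides and 5 GC boxes, and 99.4% of windows held fewer CpG, while Nck1 held 30 CpG and 3 GC boxes. A GC box was found in 33.1% of windows. The TATA sequence TATAAA, found in 14.2% of windows, was in none of the 7. The median window held 7 CpG. The motifs were chosen after the sequences had been seen, no match overlapped another, and a match is a run of letters with no binding measured here.

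PAN against control asks how the toxin changed glomerular RNA. As deposited, 2 of the 7 genes, Fat1 and Nck2, were called higher in PAN and 0 were called lower. Of all 13222 genes 22.3% were called, 21.7% higher and 0.522% lower, so the share of members is close to the background. The median change of the 7 was 0.60 on the log2 scale, against 0.28 for all genes. After median-ratio scaling 0 of 7 were called by limma, where 8.63% of all genes were, and 3 of 7 had an unadjusted p under 0.05, where 26.6% of all genes did. The median was then 0.30 against -0.0025. For every member the ranges of the PAN and control rats overlapped, while 22.4% of all genes had all 4 PAN rats above all 4 control rats and 0.87% had them all below. In a fit with the podocyte score as a covariate, chosen after the data were seen, Magi2 was between 3.74-fold and 4.05-fold lower than control in the 3 injected groups and the other 6 genes were not called. With the planned podocyte-score scaling Magi2 was not called in PAN or with pioglitazone.

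**Figure D1:**
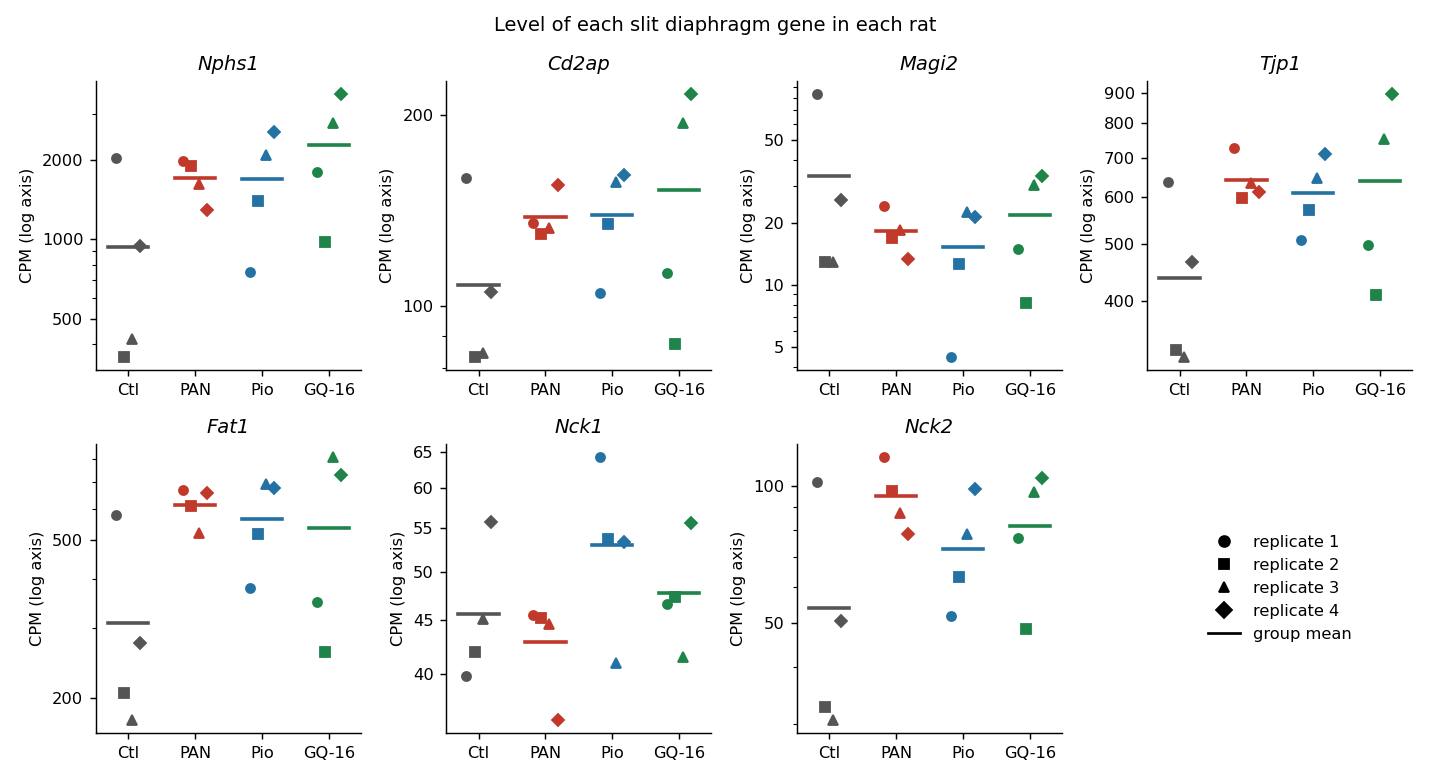
CPM on a log axis for each of the 7 genes in each rat (symbols, by replicate number within the group), with the group mean as a line. For every gene the control rats overlap the PAN rats, and control replicate 1 is the highest control rat for every gene except Nck1, where it is the lowest.

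Nphs1 encodes nephrin, the transmembrane adhesion protein that spans the slit. Its level was 2026, 358, 419 and 941 CPM in control replicates 1 to 4 and 1984, 1903, 1625 and 1297 CPM in PAN replicates 1 to 4. Control replicate 1 was above all 4 PAN rats and the other 3 control rats were below all 4. The group means were 936 ± 773 (SD, n = 4) and 1702 ± 311 CPM, and on the log2 scale PAN was 1.20 above control (SE 0.52, limma adjusted p = 0.0939). After median-ratio scaling it was 0.90 (limma adjusted p = 0.210). Nphs1 was not called in either direction on day 11.

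Fat1 encodes a giant protocadherin, an adhesion protein whose tail regulates actin at the slit. It was at 576, 206, 176 and 275 CPM in control and at 669, 610, 521 and 656 CPM in PAN. PAN replicate 3 alone was below control replicate 1. The means were 308 ± 183 and 614 ± 67.3 CPM, and Fat1 rose by 1.15 log2 units (SE 0.37, limma adjusted p = 0.0403). The call was lost after median-ratio scaling, where the change was 0.84 (limma adjusted p = 0.104), and without any 1 of 7 of the 8 rats, with limma adjusted p between 0.0524 and 0.142. Without control replicate 1 the change was 1.50 and the limma adjusted p was 0.00597.

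Magi2 encodes a scaffold with several PDZ domains that binds the tail of nephrin. Its level was 83.6, 12.9, 12.9 and 25.8 CPM in control and 24.0, 16.8, 18.4 and 13.4 CPM in PAN. The highest value of all 16 rats was in control replicate 1, and the other 3 control rats lay across the PAN range. The change was -0.45 (SE 0.57, limma adjusted p = 0.542), and without control replicate 1 it was 0.12. After median-ratio scaling it was -0.74 (limma adjusted p = 0.360), and -0.23 without control replicate 1, so the sign of the deposited difference rests on 1 rat and that of the scaled one does not.

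Tjp1 encodes ZO-1, the scaffold that joins junction proteins to actin. It was at 636, 331, 322 and 466 CPM in control and at 727, 597, 633 and 612 CPM in PAN. Control replicate 1 lay within the PAN range and the other control rats lay below it. The change was 0.60 (SE 0.25, limma adjusted p = 0.0819) and 0.30 after median-ratio scaling (limma adjusted p = 0.262), and neither was called.

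Cd2ap encodes the adaptor that ties nephrin to actin and to endocytic proteins. It was at 159, 83.2, 84.5 and 105 CPM in control and at 136, 130, 133 and 155 CPM in PAN. Control replicate 1 was the highest of these 8 rats. The change was 0.40 (SE 0.26, limma adjusted p = 0.244) as deposited and 0.10 after median-ratio scaling (limma adjusted p = 0.765), and it was not called.

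Nck1 and Nck2 encode paralogous SH2/SH3 adaptors that bind phosphorylated nephrin. Nck1 was at 39.9, 42.0, 45.1 and 55.7 CPM in control and at 45.5, 45.2, 44.6 and 36.2 CPM in PAN. The ranges overlapped in part, with PAN replicate 4 below every control rat and control replicate 4 above every PAN rat. Its change was -0.08 (SE 0.15, limma adjusted p = 0.667), and -0.38 after median-ratio scaling (limma adjusted p = 0.158). Nck2 was at 102, 32.7, 30.7 and 50.5 CPM in control and at 116, 97.7, 87.4 and 78.6 CPM in PAN. Only control replicate 1 reached the PAN range. Nck2 rose by 0.96 (SE 0.32, limma adjusted p = 0.0453), a call that was lost after median-ratio scaling (0.66, limma adjusted p = 0.116). It was kept without control replicate 1 (1.32, limma adjusted p = 0.00330) and without PAN replicate 4, and was lost without any of the other 6 rats. Without control replicate 1, Nphs1 (1.69, limma adjusted p = 0.0151) and Tjp1 (0.80, limma adjusted p = 0.0205) were called higher as well, making 4 of 7, where 37.5% of all genes were called. Without any of the other 7 rats at most 1 of the 7 was called. With median-ratio scaling as well, a setting chosen after the data were seen, Nphs1 (1.31, limma adjusted p = 0.0462), Fat1 (1.13, limma adjusted p = 0.0194) and Nck2 (0.95, limma adjusted p = 0.00644) were called higher without that rat, and Nck1 was called lower (-0.51, limma adjusted p = 0.0488), where 12.1% of all genes were called.

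The members differed in how much they varied between rats of a group. The SD within groups, on the log2 scale after median-ratio scaling, was 0.80 for Magi2 and 0.68 for Nphs1, larger than that of 98.7% and 97.1% of all genes, and 0.24 for both Tjp1 and Nck1, larger than that of 62.4%. This variation followed the podocyte score in 6 of the 7. Within groups the mitochondrial share of reads was mostly lower in rats with a higher score. It was 19.4%, 16.3%, 12.7% and 8.77% in pioglitazone replicates 1 to 4, whose scores were 7.18, 8.07, 8.54 and 8.84. With GQ-16 it was 31.4% in the rat at 7.42 and 6.76% in the rat at 9.23, and in control 39.6% in a rat at 6.39 and 13.9% in the rat at 8.64. The part of the mitochondrial share in the relations below was not tested. After centring each group on its own mean and median-ratio scaling, Nphs1 correlated with the score over the 16 rats with Pearson's r of 0.983 (permutation p = 4e-05 over 100000 permutations within groups, adjusted p = 0.000224 over 28 relations) and Spearman's rho of 0.979 (permutation p = 4e-05, adjusted p = 0.000490). Magi2 followed with r of 0.982 (permutation p = 3e-05, adjusted p = 0.000224) and rho of 0.956 (permutation p = 7e-05, adjusted p = 0.000490), and Nck2 with r of 0.960 (permutation p = 2e-05, adjusted p = 0.000224) and rho of 0.947 (permutation p = 2e-05, adjusted p = 0.000490). For Fat1, Tjp1 and Cd2ap r was 0.904, 0.872 and 0.814 and rho 0.882, 0.918 and 0.776, with permutation p between 5e-05 and 0.0095, and adjusted p between 0.000233 and 0.0140. Without the 2 rats farthest from the median score, control replicate 1 and pioglitazone replicate 1, r was 0.962 for Nphs1, 0.960 for Magi2, 0.944 for Nck2, 0.838 for Fat1, 0.893 for Tjp1 and 0.761 for Cd2ap. These values share libraries and scaling.

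Nck1 varied in the opposite direction. Its r with the podocyte score was -0.747 (permutation p = 0.0115, adjusted p = 0.0129) and its rho -0.635 (permutation p = 0.0349, adjusted p = 0.0383), but r was -0.383 without the same 2 rats, so the relation rests on them. Nck1 correlated negatively with all 6 other members, with r between -0.782 and -0.517 and 5 of 6 adjusted p under 0.05, and without the 2 rats farthest from the median of the first gene of each pair r ran from -0.867 with Cd2ap to -0.257 with Nphs1. By contrast all 15 pairs among the other 6 genes were positive, with r between 0.702 and 0.969. The genes most like Nck1 over the 16 rats, without centring on group means, were Kank3 (r = 0.957) and Emcn (r = 0.952). Emcn encodes endomucin, a sialomucin of endothelial cells. The gene most like Nck2 was Kirrel1 (r = 0.977), which encodes the nephrin relative Neph1.

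**Figure D2:**
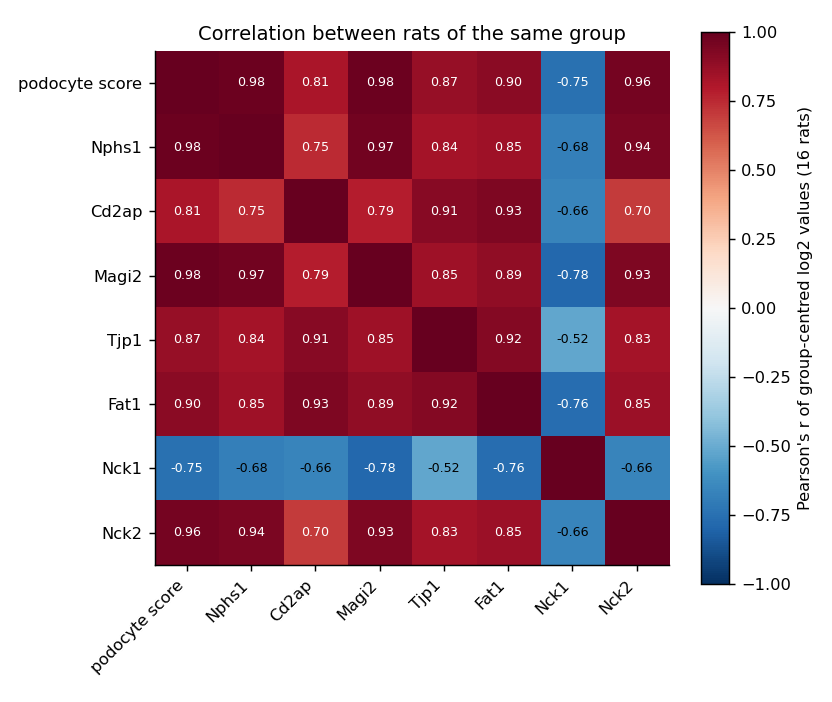
Pearson's r between group-centred log2 values over 16 rats, for the podocyte score and the 7 genes (colour and printed value). The score and 6 of the genes are positively correlated with each other and Nck1 is negatively correlated with all of them.

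The genes most like the other members, by r over the 16 rats, were Metrnl (0.983) and Efnb1 (0.982) for Nphs1, Ptpn13 (0.909) and Arhgap12 (0.902) for Magi2, Arhgef17 (0.975) and Itgav (0.975) for Fat1, Emc1 (0.958) and Peg3 (0.955) for Tjp1, and Lgr4 (0.959) and Megf9 (0.959) for Cd2ap. By this r, which is not centred on group means, Magi2 was the member with the least close neighbours. After centring, its r was 0.966 with Ptpn13 and 0.871 with Arhgap12. Efnb1 encodes ephrin-B1, a ligand also found at the slit diaphragm, and Itgav encodes an integrin chain.

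Magi2 differed from the other members in its level relative to the podocyte score, which is itself a mean of RNA levels. Its log2 level minus the podocyte score was between -2.60 and -2.24 in the 4 control rats, between -4.41 and -4.05 in PAN, between -4.73 and -3.99 with pioglitazone and between -4.33 and -4.02 with GQ-16. All 12 injected rats were below all 4 control rats. Control replicate 1 and the PAN rats had nearly the same podocyte score, 8.64 against 8.26 to 8.69, yet that control rat had 83.6 CPM of Magi2 and the PAN rats had 13.4 to 24.0. Control replicate 4, at a score of 7.32, had 25.8 CPM, while pioglitazone replicate 1 at 7.18 had 4.48 CPM and GQ-16 replicate 2 at 7.42 had 8.20 CPM.

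With the podocyte score as a covariate, an analysis chosen after the data were seen, Magi2 fell by 1.93 in PAN against control (SE 0.14, 3.80-fold, limma adjusted p = 1.16e-05). It fell by 2.02 with pioglitazone (SE 0.13, 4.05-fold, limma adjusted p = 2.58e-06) and by 1.90 with GQ-16 (SE 0.14, 3.74-fold, limma adjusted p = 1.66e-05). The 3 comparisons share the same 4 control rats. In each, Magi2 had the smallest p of all 13222 genes, and it was the 1 member called, among 0.484%, 0.529% and 0.0227% of genes called lower. The other 6 members differed by -0.21 to 0.24 in PAN, -0.08 to 0.29 with pioglitazone and -0.19 to 0.14 with GQ-16, and were not called. The fit assumes a single slope of log2 level on the score for all groups, and the PAN rats cover only a narrow range of the score. Control replicates 2 and 3, at scores of 6.39 and 6.38, have lower scores than every injected rat. Their comparison with the injected rats rests on that slope.

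Podocyte-score scaling, which sets the score equal between rats, gave Magi2 a change of -1.70 in PAN (limma adjusted p = 0.0721) and -1.85 with pioglitazone (limma adjusted p = 0.0811), neither called. With GQ-16 it gave -1.67 (limma adjusted p = 0.0384), in a comparison where 61% of all genes were called under that scaling. Within the covariate fit the call was kept in the settings below. Leaving out 1 rat at a time, the change of Magi2 at a given score stayed between -1.98 and -1.86 in PAN, -2.10 and -1.89 with pioglitazone and -2.01 and -1.85 with GQ-16, with limma adjusted p of at most 0.00190, 0.000378 and 0.00272. With Nphs1 in place of the score the changes were -1.76, -2.04 and -1.98. With the title number of the library also in the model they were -1.92, -2.02 and -1.90, and among libraries with title numbers under 25 alone, where 1 PAN rat remained and was assumed to vary like the others, they were -2.14, -1.99 and -1.91. The log2 level of Magi2 minus that of a single podocyte gene was above all 12 injected rats in all 4 control rats for 16 of the 18 score genes and for Nphs1, but not for Thsd7a and Clic5. How often other genes are separated from the score genes in this way is not given here. The 18 score genes themselves ranged from -0.39 (Thsd7a) to 0.69 (Rhpn1) in PAN under the same covariate, from -0.58 (Ptpro) to 0.61 (Rhpn1) with pioglitazone and from -0.59 (Ptpro) to 0.68 (Rhpn1) with GQ-16. Only Rhpn1 in PAN, higher, and Ptpro with pioglitazone, lower, were called.

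**Figure D3:**
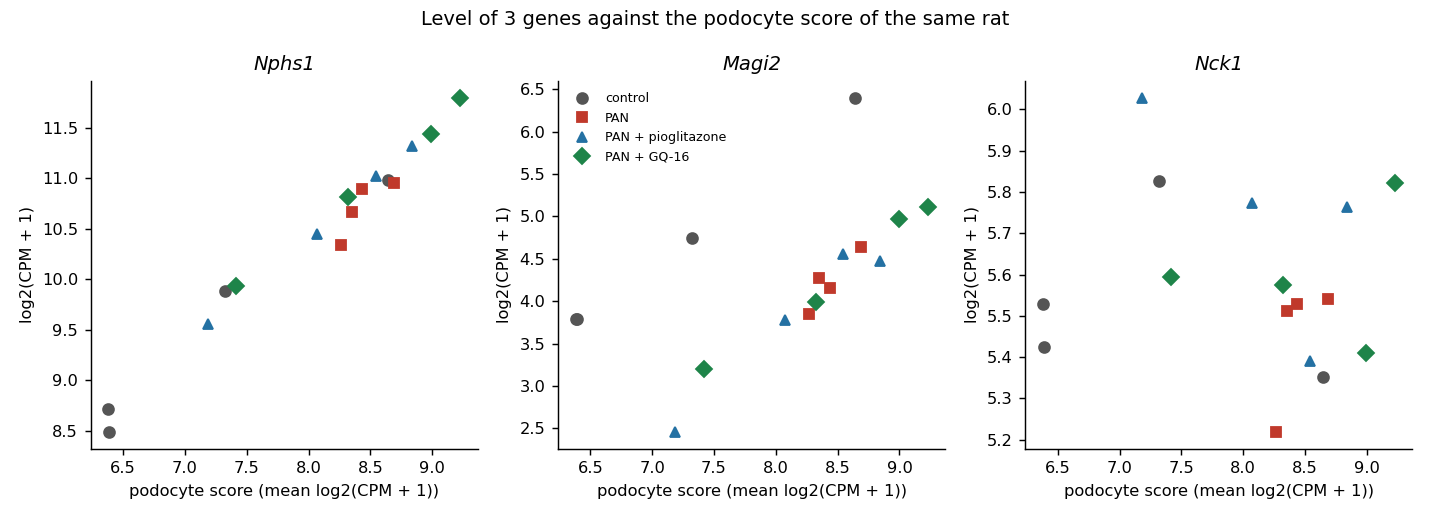
Level of Nphs1, Magi2 and Nck1, as log2(CPM + 1), against the podocyte score of the same rat, 16 rats, by group. Nphs1 rises with the score along a single line in all groups. For Magi2, control replicates 1 and 4 lie above the injected rats at a similar score. Control replicates 2 and 3 have lower scores than every injected rat. Nck1 shows no single line.

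Some markers of other cells differed between the same groups. The summed level of 11 mesangial and smooth muscle markers was 350 to 910 CPM in control and 1728 to 2858 CPM in PAN, and that of 4 striated muscle markers was 6.70 to 28.1 and 371 to 584 CPM. Of these 4, Synpo2l, Myom2 and Pygm were called higher in PAN and Actn3 was at 2.67 CPM in control and 2.48 CPM in PAN, and the other 11 of 15 listed striated muscle genes were not in the table. With pioglitazone and GQ-16 the striated muscle sums were 88.1 to 489 and 73.9 to 507 CPM. The mesangial and smooth muscle sums were 1245 to 1775 CPM with pioglitazone and 800 to 1457 CPM with GQ-16. The 11 distal nephron and collecting duct markers summed to 1018 to 1756 CPM in control and 547 to 1138 CPM in PAN, and these ranges overlapped. Of 11 leukocyte markers Cd68, Adgre1, Csf1r and Lyz2 were called higher in PAN as deposited. The list summed to 508 to 844 CPM in control and 755 to 1714 CPM in PAN, and these ranges overlapped. All 4 calls were lost after median-ratio scaling (limma adjusted p between 0.107 and 0.245) and with the podocyte score as covariate (limma adjusted p between 0.129 and 0.248). Their changes were 0.83 to 1.07 as deposited, 0.53 to 0.78 after that scaling and 0.84 to 1.03 with the covariate. The sums of the proximal tubule, endothelial and parietal epithelial markers overlapped between control and PAN, with 0 of 12, 2 of 11 and 1 of 8 called higher and 0 lower, beside 21.7% of all genes called higher and 0.522% lower. The endothelial marker Plvap was also called after median-ratio scaling (limma adjusted p = 0.00139), while the calls of the endothelial marker Eng and the parietal marker Cd44 were lost (limma adjusted p = 0.294 and 0.124). The change of Cd44 was 0.90 as deposited and 0.62 after that scaling. No marker list was at 0 in any group. Their part in the changes of the 7 genes was not tested.

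The pioglitazone and GQ-16 groups against PAN ask whether the drugs altered the response. By limma 0 of 7 genes were called with pioglitazone, where 0% of all genes were called, and 0 of 7 with GQ-16, where 0.0151% were, and 0 of 7 between the drugs, where 0% were. In all 3 comparisons 0 of 7 had an unadjusted p under 0.05, which 3.74%, 8.27% and 5.94% of all genes had, and voom with median-ratio scaling also called 0. Nphs1 was at 749, 1399, 2084 and 2547 CPM with pioglitazone and 1799, 974, 2761 and 3553 CPM with GQ-16, and both ranges contained that of the PAN rats. Against PAN the difference was -0.13 with pioglitazone (95% interval -1.22 to 0.97) and 0.28 with GQ-16 (-0.82 to 1.37), so the first interval includes a 2-fold fall and the second a 2-fold rise.

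Fat1 was at 378, 519, 691 and 676 CPM with pioglitazone and at 348, 262, 809 and 727 CPM with GQ-16. Tjp1 was at 508, 571, 647 and 711 and at 498, 409, 753 and 896 CPM. In both groups the rats spread more widely than the PAN rats. The intervals against PAN were -0.94 to 0.64 and -1.14 to 0.45 for Fat1, and -0.61 to 0.44 and -0.60 to 0.45 for Tjp1. Cd2ap was at 105, 135, 157 and 161 CPM with pioglitazone and 113, 87.4, 194 and 216 CPM with GQ-16, with differences of -0.0057 (-0.56 to 0.55) and 0.05 (-0.51 to 0.60).

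Magi2 was at 4.48, 12.7, 22.5 and 21.2 CPM with pioglitazone and at 14.9, 8.20, 30.4 and 33.5 CPM with GQ-16. At a given podocyte score the drug groups differed from PAN by -0.09 (-0.34 to 0.16, limma adjusted p = 0.896) and 0.03 (-0.22 to 0.27, limma adjusted p = 0.930), and from each other by 0.12 (-0.13 to 0.37, limma adjusted p = 0.747). The intervals are narrower than those without the score, and both intervals against PAN lie below 1.93, the distance from PAN up to control at a given score. Nck2 was at 51.9, 63.1, 78.3 and 98.3 CPM and at 77.1, 48.5, 97.2 and 104 CPM, with differences of -0.40 (-1.09 to 0.29) and -0.26 (-0.94 to 0.43).

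Nck1 was at 64.3, 53.7, 41.0 and 53.3 CPM with pioglitazone and at 46.6, 47.3, 41.5 and 55.6 CPM with GQ-16. Pioglitazone replicate 1 was the highest of the 16 rats and replicate 3 lay within the PAN range. The difference between pioglitazone and PAN was 0.29 (-0.02 to 0.60, limma adjusted p = 0.916), and 0.37 after median-ratio scaling, with an unadjusted p of 0.0381 and a limma adjusted p of 0.776. Between GQ-16 and pioglitazone the difference of Nck1 was -0.14 (-0.45 to 0.17). Differences between the 2 compounds, which the labels do not tie to matched doses, ranged from -0.19 for Fat1 to 0.51 for Magi2 (interval -0.70 to 1.71), with limma adjusted p = 0.999 for each of the 7.

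**Figure D4:**
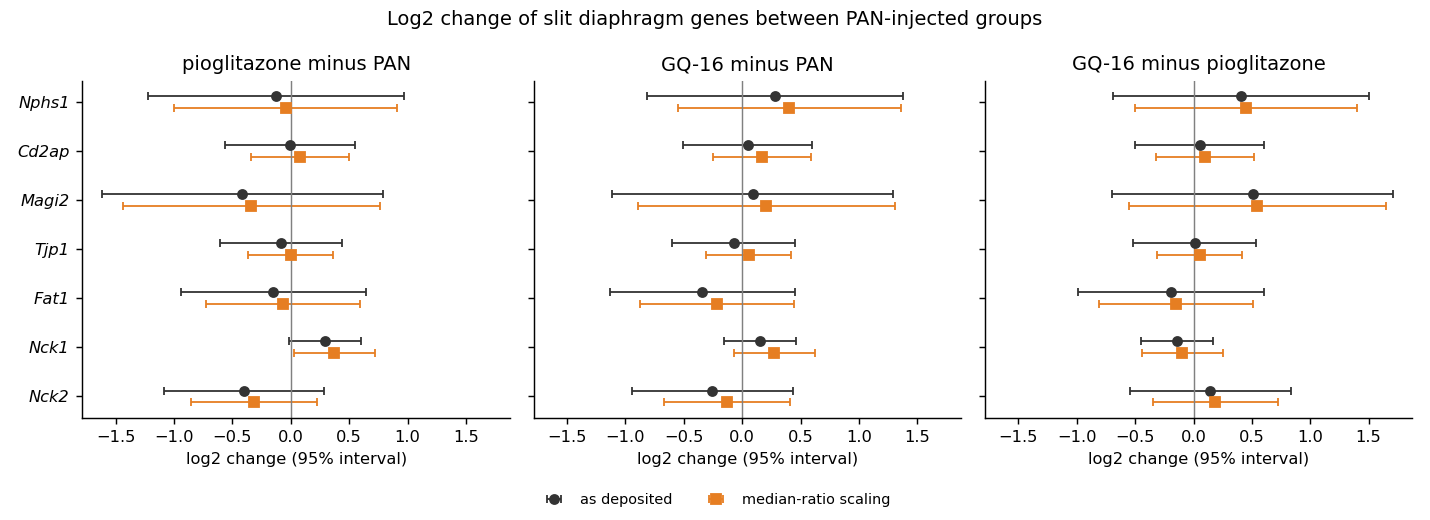
Log2 change between the 3 injected groups for the 7 genes (points) with 95% intervals (bars), as deposited and after median-ratio scaling. All intervals as deposited include 0, and those of Nphs1 and Magi2 are the widest.

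Against control, with pioglitazone 0 of 7 were called as deposited, where 4.98% of all genes were, and with GQ-16 0 of 7, where 0.151% were. An unadjusted p under 0.05 was reached by 1 and 4 of the 7, and by 28.5% and 23.9% of all genes. The changes with pioglitazone and GQ-16, which share the 4 control rats with PAN, were 1.07 and 1.48 for Nphs1, 0.99 and 0.80 for Fat1, 0.52 and 0.53 for Tjp1, 0.40 and 0.45 for Cd2ap, 0.56 and 0.70 for Nck2, and 0.21 and 0.07 for Nck1. For Magi2 they were -0.87 and -0.36 (limma adjusted p = 0.289 and 0.689). The median changes were 0.52 and 0.53, against 0.21 and 0.17 for all genes. Without control replicate 1, Nphs1, Fat1 and Nck2 were called higher in both, with changes of 1.56, 1.35 and 0.92 with pioglitazone and 1.97, 1.16 and 1.06 with GQ-16 (limma adjusted p between 0.0234 and 0.0422). In that setting 12.6% and 11.9% of all genes were called. The counts changed with single rats: with pioglitazone 659 genes were called with all rats, 1660 without control replicate 1, and 48, 65 and 57 without control replicate 2, control replicate 3 or pioglitazone replicate 2. With GQ-16 they were 20 with all rats, 1572 without control replicate 1, 3 and 2 without control replicate 2 or 3, and 0 without GQ-16 replicate 3.

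**Figure D5:**
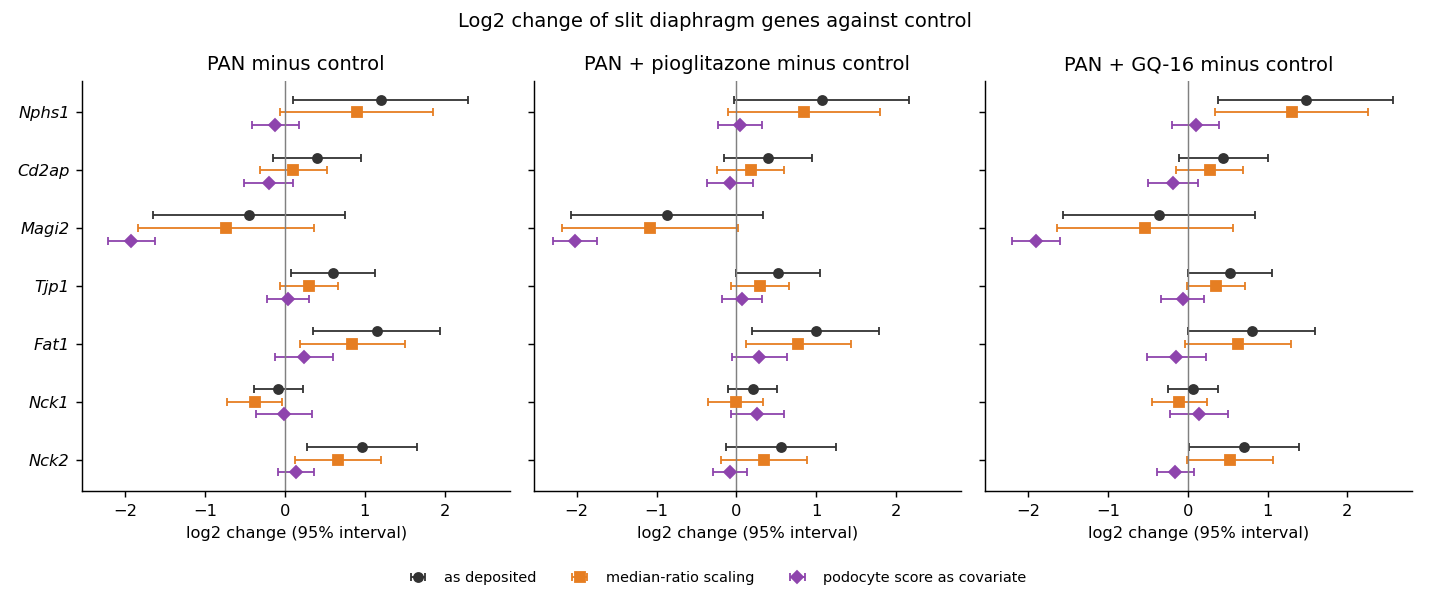
Log2 change against control for the 7 genes (points) with 95% intervals (bars) in the 3 injected groups, as deposited, after median-ratio scaling, and with the podocyte score as a covariate. With the score as covariate the intervals of 6 genes include 0 in each panel and that of Magi2 lies wholly below -1.5.

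The members work together with other junction proteins, and 20 of 24 listed gene symbols were in the table. The missing Kirrel and Pals1 are other symbols for Kirrel1 and Mpp5, which were in it. In PAN 4 of 20 were called higher and 0 lower, a share near the 21.7% of all genes called higher. Trpc6, the calcium channel of the slit, was at 7.94 CPM in PAN and 2.29 CPM in control and rose by 1.43 (SE 0.23, limma adjusted p = 0.00116), a call that held after median-ratio scaling (1.20, limma adjusted p = 0.00272). Kirrel2 rose by 1.81 (limma adjusted p = 0.0267), Kirrel1 by 1.70 (limma adjusted p = 0.0390) and Cask, a membrane scaffold, by 0.45 (limma adjusted p = 0.0468). All 3 calls were lost after that scaling, where the changes were 1.56, 1.40 and 0.16 (limma adjusted p = 0.0544, 0.0878 and 0.398). With the podocyte score as covariate the changes were 0.47 for Kirrel2, 0.26 for Kirrel1 and 0.25 for Cask, with limma adjusted p between 0.154 and 0.423, while Trpc6 was called at 1.15 (limma adjusted p = 0.0146). After median-ratio scaling Magi1, the closest relative of Magi2 on the list, was called lower, at -0.56 (limma adjusted p = 0.0172), against -0.27 as deposited (limma adjusted p = 0.163), and is named after its values were seen. Against control Trpc6 was also called with pioglitazone (1.09, limma adjusted p = 0.0181) but not with GQ-16 (0.59, limma adjusted p = 0.153). The pioglitazone call held after median-ratio scaling (0.94, limma adjusted p = 0.0270) and was lost with the podocyte score as covariate (0.87, limma adjusted p = 0.0630). In GQ-16 against PAN the difference of Trpc6 was -0.84 (limma adjusted p = 0.403), and the difference between the drugs was -0.50 (limma adjusted p = 0.819).

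Of 43 listed proteins that carry nephrin signals or act on actin, 42 were in the table, and 11 were called higher in PAN and 0 lower. Among the 11 were Inppl1 (1.05, limma adjusted p = 0.00988), a phosphoinositide phosphatase, Csk (0.58, limma adjusted p = 0.01003), the kinase that restrains Src family kinases, Sh3kbp1 (0.99, limma adjusted p = 0.0165), a relative of Cd2ap, and Vav2 (0.70, limma adjusted p = 0.0229), a guanine nucleotide exchange factor. The shares are read against 21.7% of all genes called higher, and after median-ratio scaling 3 of 42 were called higher, where 8.63% of all genes were called in either direction. With the podocyte score as covariate the changes were 0.50 for Inppl1, 0.40 for Csk, 0.38 for Sh3kbp1 and 0.33 for Vav2, with limma adjusted p between 0.0603 and 0.285, and none of the 42 was called, where 4.86% of all genes were. In the other 5 comparisons 0 of 42 were called by limma.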

How the data were processed

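Glomerular RNA of 16 rats was sequenced from 200 ng of total RNA as stranded poly(A) libraries (12 PCR cycles, pairs of 150 bases, 2 lanes), per the labels' protocols. The submitters' processing notes name HISAT2, featureCounts, Subread, limma and the build Rnor_6.0, without versions. The authors deposited log2 CPM values, which carry an offset of 0.5 read per count and 1 read per total. Undoing this gave whole reads for 100% of values (tolerance 0.01). The table lists genes with 2.04 CPM or more in 8 or more libraries. Replicate numbers only name the rats of a group.

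Tests were made in R 4.3.3 with limma 3.58.1, with log2(CPM + 1) as the response and 4 group means fitted to all 16 rats, a trend of variance on level and adjustment over 13222 genes. The planned test for raw counts was not used because the table holds log2 values. The fit was also run on simulated data, with an outcome that is not reported here. Reads carry no molecular identifiers. Libraries of a group differed beyond counting error. Alternatives were median-ratio and podocyte-score scaling, voom, a pseudocount of 0.1, only the groups compared, a mean of at least 10 CPM, the title number (25 or more) as covariate, and leaving out each rat. The podocyte-score covariate and the further checks of Magi2 were chosen after the data were seen. The members and lists were chosen with earlier results of these data known. Named partners were those with the smallest p in each list, and the genes most like a member were the 2 with the highest r and a mean of at least 5 CPM, of which 1 is not reported here. Symbols matched RefSeq promoters for 7 of 7 members. Protein sequences were not used here.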

Additional observations from a re-analysis of the deposited data

Results flagged for a closer look

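Nck1 in PAN replicate 4 had a log2(CPM + 1) of 5.22, below the other 3 PAN rats at 5.51 to 5.54. The gap to the nearest rat was 0.914 of the range of the group, above Dixon's 95% critical value for groups of 4. Of 36 groups examined 1 was set apart in this way, and chance gives about 1.8.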

How the results depend on the processing

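No paired analysis was possible because the labels give no number that pairs rats across groups, and the replicate numbers are accession-order names. In PAN against control, 2 of the 7 genes were called as deposited, 0 with median-ratio scaling, podocyte-score scaling, voom or the title number as covariate, 1 with only the 2 groups fitted, and 1, Magi2, with the podocyte score as covariate. Pseudocount 0.1 and a mean of at least 10 CPM gave 2. Leaving out each rat gave 0 to 4. Against control, pioglitazone gave 1 and GQ-16 gave 1 with the covariate, GQ-16 gave 2 with podocyte-score scaling, where 61% of all genes were called, and leaving out each rat gave 0 to 3 for each. Comparisons between the injected groups gave 0 in every setting. The count of all 13222 genes called in PAN against control was 2943 as deposited, 1141 with median-ratio scaling and 20 with podocyte-score scaling. It was 1047 with voom, 393 with the title number as covariate, 1580 with only the 2 groups fitted and 642 with the podocyte score as covariate. Pseudocount 0.1 gave 2962, and a mean of at least 10 CPM gave 2363 of 9909. Leaving out 1 control or PAN rat gave between 838, without control replicate 3, and 4964, without control replicate 1, with 860 without control replicate 2, 1049 without PAN replicate 1, 1317 without PAN replicate 2 and 1958 without PAN replicate 3. Leaving out 1 control or treated rat gave 48 to 1660 genes for pioglitazone against control, with 172 without pioglitazone replicate 4, and 0 to 1572 for GQ-16 against control, with 155 without GQ-16 replicate 4. Podocyte-score scaling moved the median of all genes to -0.97 in PAN against control, -0.76 with pioglitazone and -1.14 with GQ-16, and signs under it are relative to that shift. The cause of the other changes was not tested. With podocyte-score scaling, the log2 change took the other sign in PAN against control -0.053 for Nphs1, -0.85 for Cd2ap, -0.65 for Tjp1, -0.11 for Fat1, -0.29 for Nck2, -0.80 for Cask, -0.20 for Inppl1, -0.67 for Csk, -0.59 for Ptpn1, -0.26 for Sh3kbp1, -0.77 for Akt1 and -0.55 for Vav2. In pioglitazone against PAN it was 0.15 for Nphs1, 0.27 for Cd2ap, 0.19 for Tjp1 and 0.12 for Fat1. In GQ-16 against PAN it was -0.0073 for Cd2ap. In GQ-16 against pioglitazone it was -0.28 for Cd2ap, -0.32 for Tjp1 and -0.19 for Nck2. In pioglitazone against control it was -0.58 for Cd2ap, -0.46 for Tjp1, -0.77 for Nck1, -0.42 for Nck2, -0.39 for Ptpn1, -0.51 for Csk and -0.099 for Sh3kbp1. In GQ-16 against control it was -0.86 for Cd2ap, -0.78 for Tjp1, -0.50 for Fat1, -1.24 for Nck1, -0.60 for Nck2, -0.72 for Trpc6, -0.30 for Mpp5, -0.49 for Inppl1 and -0.45 for Sh3kbp1. With the podocyte score as covariate, the log2 change took the other sign in PAN against control -0.12 for Nphs1 and -0.21 for Cd2ap. In pioglitazone against PAN it was 0.16 for Nphs1, 0.13 for Cd2ap, 0.042 for Tjp1 and 0.049 for Fat1. In GQ-16 against pioglitazone it was -0.11 for Cd2ap, -0.14 for Tjp1 and -0.072 for Nck2. In pioglitazone against control it was -0.078 for Cd2ap and -0.082 for Nck2. In GQ-16 against control it was -0.19 for Cd2ap, -0.063 for Tjp1, -0.14 for Fat1, -0.15 for Nck2 and -0.034 for Mpp5. With median-ratio scaling it was in pioglitazone against PAN 0.077 for Cd2ap, and in GQ-16 against PAN 0.054 for Tjp1, and in pioglitazone against control -0.0085 for Nck1, and in GQ-16 against control -0.10 for Nck1. With voom and that scaling it was in pioglitazone against PAN 0.076 for Cd2ap and 0.0041 for Tjp1, and in GQ-16 against PAN 0.043 for Tjp1, and in pioglitazone against control -0.0091 for Nck1, and in GQ-16 against control -0.11 for Nck1. With the title number as covariate it was in pioglitazone against PAN 0.29 for Nphs1, 0.14 for Cd2ap, 0.11 for Tjp1 and 0.024 for Fat1, and in GQ-16 against PAN 0.12 for Tjp1. Leaving out each rat in turn also changed the sign of some small differences. In PAN against control it ran from -0.75 to 0.12 for Magi2 and from -0.14 to 0.015 for Nck1. In pioglitazone against PAN it ran from -0.081 to 0.12 for Cd2ap, from -0.26 to 0.029 for Fat1, from -0.66 to 0.037 for Magi2, from -0.37 to 0.22 for Nphs1 and from -0.16 to 0.00027 for Tjp1. In GQ-16 against PAN it ran from -0.15 to 0.28 for Cd2ap, from -0.17 to 0.46 for Magi2 and from -0.26 to 0.12 for Tjp1. In GQ-16 against pioglitazone it ran from -0.15 to 0.29 for Cd2ap, from -0.44 to 0.0999 for Fat1, from -0.0027 to 0.37 for Nck2 and from -0.18 to 0.20 for Tjp1. In GQ-16 against control it ran from -0.66 to 0.21 for Magi2 and from -0.0064 to 0.17 for Nck1.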
